A study of Danio rerio with 18 samples.

Results

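RNA bound to ribosomes of endothelial cells was set against RNA bound to ribosomes of the whole embryo, each after its own input RNA had been subtracted, in 12 of the 18 libraries of the series. Each line contributed an enrichment, the log2 fold change of immunoprecipitated (IP) RNA over input RNA. The quantity reported here is the AngioTag enrichment minus the RiboTag enrichment, called the difference of enrichments below. It addresses which messages were enriched in the endothelial pull-down beyond what the same pull-down did to messages of all cells. All 12 libraries came from pools of zebrafish (Danio rerio) embryos at 24 hours post fertilization (hpf), and every pool carried a transgene. The AngioTag IP (3 libraries) was RNA pulled out of AngioTag transgenic embryos with an antibody to the HA tag, and AngioTag input (3 libraries) was total RNA of AngioTag embryos. The RiboTag IP and RiboTag input (3 libraries each) were the same preparations from RiboTag transgenic embryos. That the tagged protein is rpl10a and that kdrl regulatory sequence drives the endothelial line is known of the study and is not in the labels, nor do the labels give untagged controls for either pull-down. The remaining 6 libraries served as a separate readout. Of these, 3 were GFP-positive cells taken from dissociated AngioTag embryos by FACS, a flow cytometer's sort on fluorescence, and 3 were their whole-embryo reference. The sorted cells came from the AngioTag line too, so agreement with its pull-down is not independent of where that line's transgene is expressed. Each line was prepared as its own set of libraries, so a difference between the lines cannot be told apart from a difference between preparations. Nothing in the labels says that the 3 libraries of a group came from separate pools, so the spread behind each p-value may be technical.

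Translating ribosome affinity purification recovers ribosomes through an epitope tag on a ribosomal protein, together with the messages being translated on them. When the tag is expressed in a single cell type, messages of that type are expected to gain in the pull-down. When it is expressed everywhere, cell types are expected to keep roughly their proportions. What should then change is how strongly each message is loaded on ribosomes and what RNA sticks to the beads. Whether the RiboTag pull-down took all tissues evenly was not tested, and some tissue lists below moved in it. Subtracting the second from the first is meant to leave the cell type. Endothelial cells line blood vessels and are set up in the embryo by ETS-family transcription factors. They grow along vascular endothelial growth factor (VEGF), sense flow and lipid signals through G protein-coupled receptors, and seal their contacts with VE-cadherin and claudins. Blood stem cells arise from endothelium, and endothelial and blood lineages share early regulators.

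Library totals ran from 20708947 to 49541930 counts over the 12 libraries, with the lowest in AngioTag IP 1, in which 17549 genes had a count. Mitochondrially encoded genes held 0.11% to 0.29% of counts in the 6 IP libraries and 3.7% to 4.5% in the 6 inputs. Summed normalized CPM (counts scaled to a common library size, with trimmed mean of M values factors) of the 80 cytosolic ribosomal protein genes matched was 64960 in RiboTag IP 2 against 156000 and 203700 in the other RiboTag IPs, and 105200 in RiboTag input 2 against 165600 and 168600. RPL10A, the tagged ribosomal protein, stood at 5672, 6440.1 and 8010.1 CPM in the AngioTag IPs and 2672, 3562 and 2891 in their inputs. In the RiboTag line it stood at 2123, 1048 and 2808 in the IPs and 2367, 1506 and 2319 in the inputs. The AngioTag IPs were above all 9 other libraries. The RPL10A difference of enrichments was 1.19 ± 0.468 (log2, SE; edgeR adjusted p 0.143), and it passed with same-numbered IP and input treated as a block (adjusted p 0.0114), with DESeq2 (adjusted p 0.0437) and without RiboTag IP 3 (adjusted p 0.041), with an adjusted p of up to 0.303 over the other alternatives. Whether the counts come from the endogenous gene or the transgene was not tested.

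Of 19046 genes tested over the 12 libraries by edgeR (quasi-likelihood F test), 846 (4.44%) had a positive difference of enrichments and 673 (3.53%) a negative one at an adjusted p below 0.05. The median over all genes tested was -0.07. The shares of 4.44% and 3.53% are the background for every list count of the difference given below. Fitted positive differences were larger: 505 genes passed with a difference above 2 on the log2 scale and 196 above 4, while 150 passed below -2 and 10 below -4. Some of the large ones came from RiboTag IPs without reads. CABP7 and PLCH2, picked as examples, had 7.43 and 6.62 with 0 CPM in every RiboTag IP and AngioTag enrichments of 0.03 and 0.07. Others, such as kdrl below, came from the AngioTag side, and how many were of each kind was not counted. In the AngioTag line alone 1615 genes (8.48%) were enriched and 1968 (10.3%) depleted in the IP, and in the RiboTag line 619 (3.25%) were enriched and 394 (2.07%) depleted. With upper-quartile scaling, which moved the median of all genes by -0.17 in the AngioTag contrast and -0.08 in the RiboTag one (log2), those counts were 1238 and 2758 and 407 and 473. Leaving out single libraries moved the counts by more than 1.5 times in several cases. The positive count was 549 without AngioTag IP 3, 546 without AngioTag input 1 and 553 without AngioTag input 3. The negative count was 265 without AngioTag IP 3, 288, 369 and 307 without AngioTag inputs 1, 2 and 3, and 277, 329 and 319 without RiboTag inputs 1, 2 and 3. It was at least 560 in the other 5 cases. With any 1 library left out, 484 of the 846 positive and 217 of the 673 negative calls remained. With the IP and input of the same number as a block, 1526 genes were positive and 1515 negative, and without AngioTag IP 1 and RiboTag IP 2, 1748 and 1365.

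**Figure D1:**
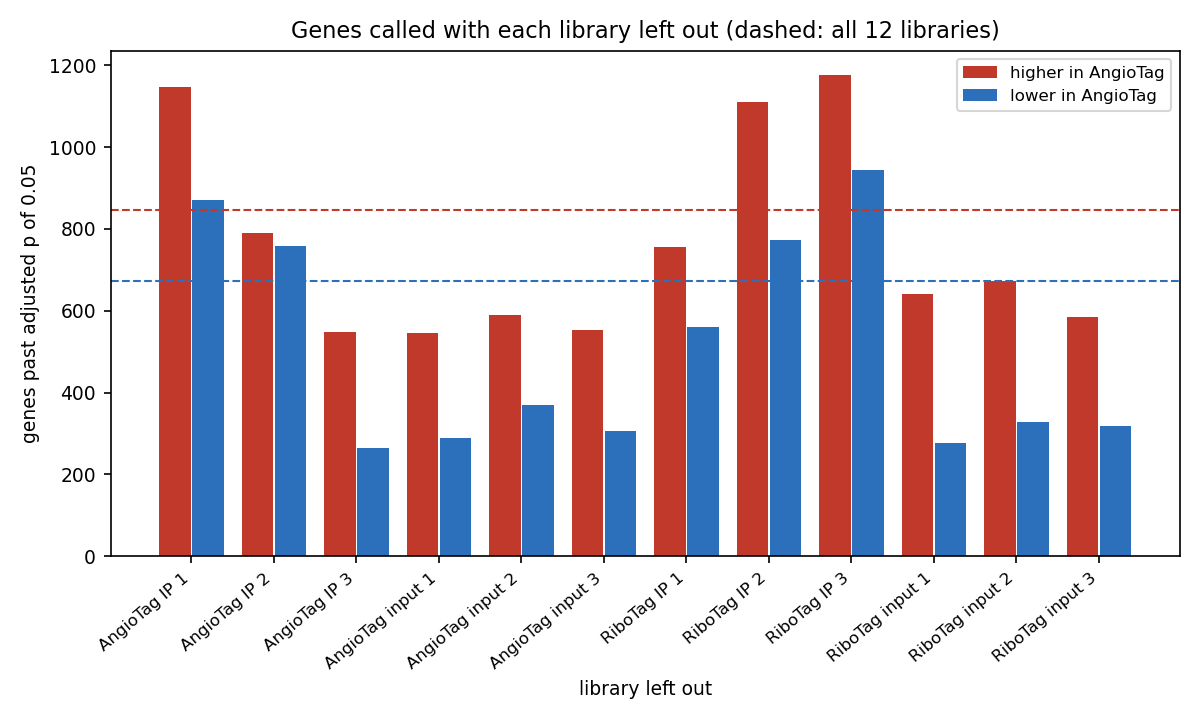
Number of genes with a positive (red) and negative (blue) difference of enrichments at an adjusted p below 0.05 when each of the 12 libraries is left out, with dashed lines at 846 and 673 for all 12. The lowest bars are 546 (red, without AngioTag input 1) and 265 (blue, without AngioTag IP 3), and the highest are 1177 and 943 (without RiboTag IP 3).

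**Figure D2:**
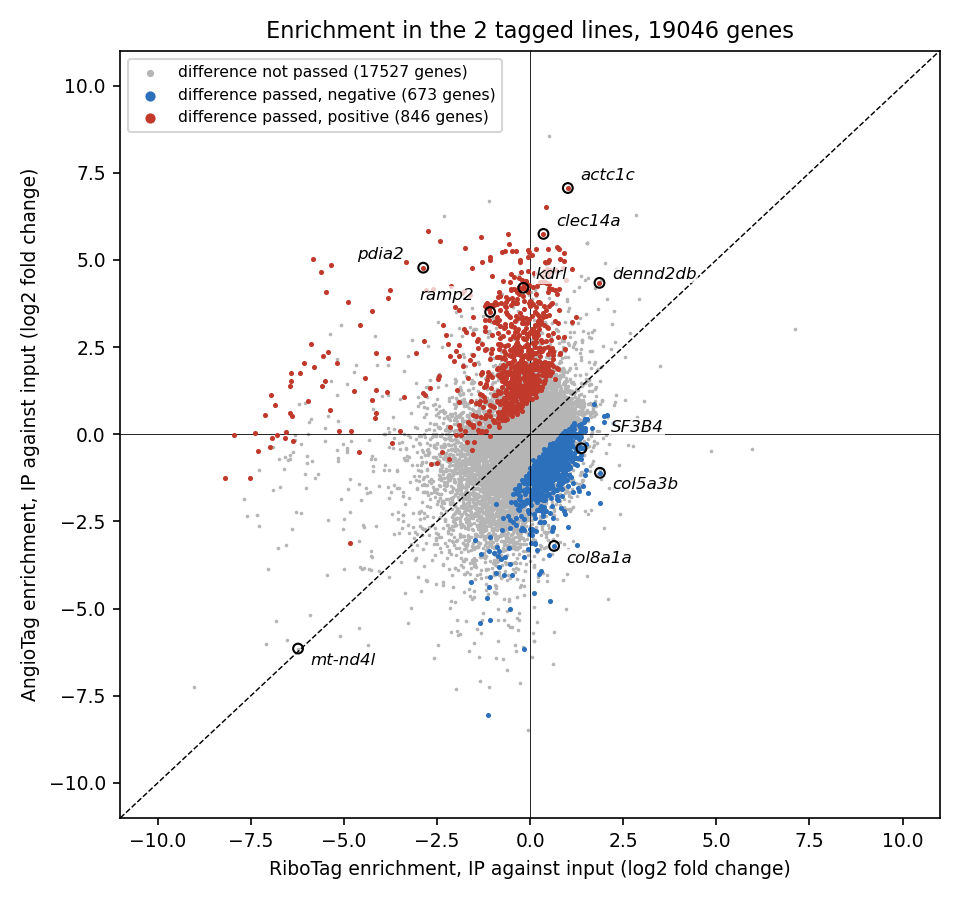
Log2 fold change of IP over input in the AngioTag line (vertical) against the RiboTag line (horizontal) for each of 19046 genes. Red points are the 846 genes with a positive and blue points the 673 with a negative difference of enrichments, and along the dashed line of equal enrichment mt-nd4l lies near it at -6.15 and -6.23.

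The markers given for endothelium behaved as follows. kdrl, a receptor for VEGF, stood at 394, 387 and 682 CPM in AngioTag IPs 1 to 3 and at 22.9, 26.9 and 29.7 in their inputs. In the RiboTag line it stood at 14, 24.2 and 16.9 in the IPs and 18.4, 22.7 and 21.4 in the inputs. The AngioTag IPs did not overlap the other 9 libraries, and RiboTag IP and input did overlap. The AngioTag enrichment of kdrl was 4.201, its RiboTag enrichment -0.18 and the difference 4.38 ± 0.375 (adjusted p 1.14e-05). ramp2 encodes an accessory protein that turns the calcitonin receptor-like receptor into a receptor for adrenomedullin. Its levels were 219, 153 and 278 CPM in the AngioTag IPs, 18, 20.5 and 18.7 in their inputs, 6.66, 6.12 and 7.66 in the RiboTag IPs and 11.7, 16 and 15.3 in theirs. Here the RiboTag IPs lay below all RiboTag inputs. The AngioTag enrichment of 3.51 and the RiboTag enrichment of -1.07 (adjusted p 0.0157) gave a difference of 4.58 ± 0.327 (adjusted p 5.29e-06), so both lines contributed. The remaining endothelial markers passed as well. cdh5 (VE-cadherin), the adhesion molecule of endothelial contacts, had a difference of 4.74 ± 0.433 (adjusted p 1.65e-05), TIE1, a receptor tyrosine kinase of the angiopoietin system, 4.51 ± 0.356 (adjusted p 8.72e-06), pecam1a, a cell adhesion molecule, 5.33 ± 0.428 (adjusted p 8.72e-06) and the ETS factor FLI1 3.37 ± 0.42 (adjusted p 0.000181). All 6 markers were also called in sorted cells, with FACS log2 fold changes from 4.16 (ramp2) to 5.64 (cdh5 and pecam1a).

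**Figure D3:**
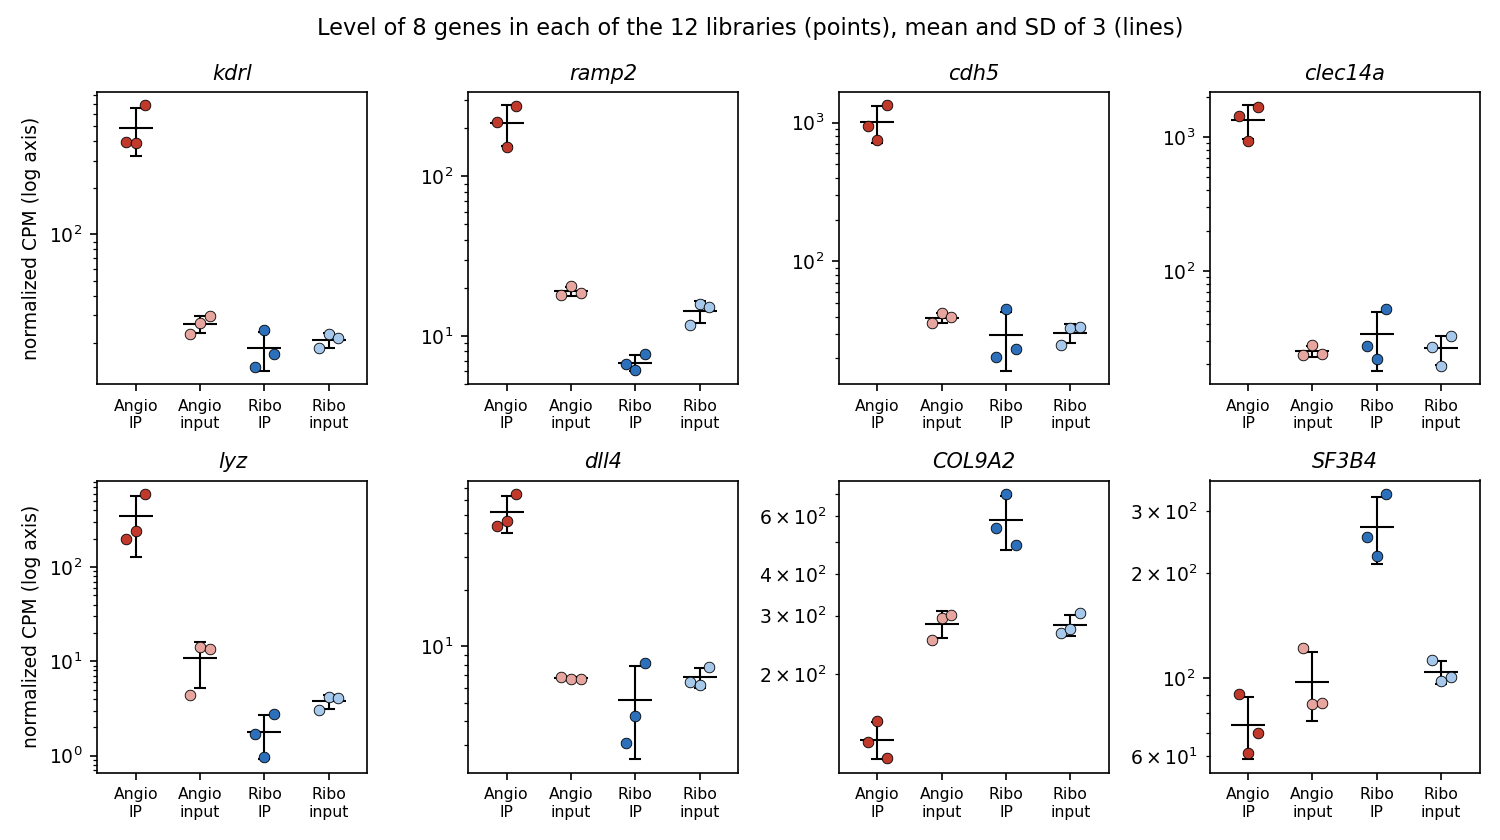
Normalized CPM (log axis, a separate scale in each panel) of 8 genes in the 12 libraries, with 1 point per library and lines for mean ± SD (n = 3). In kdrl, ramp2, cdh5, clec14a, lyz and dll4 the 3 AngioTag IPs stand above the other 9 libraries, while in COL9A2 and SF3B4 the 3 RiboTag IPs do.

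Over 5 endothelial lists together (VEGF receptors and ligands, transcription factors, surface and junction proteins, G protein-coupled receptors, lumen regulators), 70 of 120 genes tested had a positive difference and 1 a negative one, beside 4.44% and 3.53% of all genes. The median difference was 2.46, with a median AngioTag enrichment of 2.27 and a median RiboTag enrichment of -0.05. The counts stayed between 66 and 76 with any library left out. Summed CPM of the 126 members matched was 15970, 11730 and 20480 in the AngioTag IPs and between 2179 and 2412 in the other 9 libraries. In these pooled embryos a change in the share of a cell type and a change in RNA per cell cannot be told apart. Passing members spread from 1.07 to 6.34 with a median of 3.62, and 29 of them were above 4.

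VEGF receptors and ligands had 9 of 13 members with a positive difference and 0 with a negative one, and a median of 1.42. All receptors and co-receptors tested passed, while the ligands mostly did not. flt1, the decoy receptor that binds VEGF, stood at 54.7, 36.8 and 60.1 CPM in the AngioTag IPs and between 1.74 and 4.39 in the other 9 libraries, a difference of 4.49 ± 0.441 (adjusted p 2.89e-05). FLT4, the receptor for Vegfc, had 183, 172 and 261 CPM in the AngioTag IPs, 17.9, 19.5 and 18.1 in their inputs, 20.4, 19 and 22.4 in the RiboTag IPs and 16.4, 15.4 and 17.1 in theirs. Its difference was 3.13 ± 0.272 (adjusted p 1.14e-05), with no overlap of the AngioTag IPs with the rest. KDR, the second VEGF receptor of the kdrl type, passed at 3.63 ± 0.759 (adjusted p 0.00872) from lower levels, 9.02, 9.31 and 12.1 CPM in the AngioTag IPs. The co-receptors nrp1b, NRP1 and the NRP2 copies passed at 2.98, 1.25, 1.42 and 1.07, the last losing its call under 10 alternatives, 9 of them with 1 library left out (adjusted p 0.0559 to 0.214). Among ligands VEGFC passed at 2.91 ± 0.343 (adjusted p 0.000114), while the VEGFA copies had differences of 0.27 and 0.17 with adjusted p of 0.73 and 0.86, vegfba 0.20 (adjusted p 0.898) and VEGFD -1.01 (adjusted p 0.411).

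Endothelial transcription factors had 18 of 29 members with a positive difference, 0 with a negative one and a median of 2.28. ERG, an ETS factor, stood at 486, 169 and 245 CPM in the AngioTag IPs against 11.7, 12 and 9.93 in their inputs, 15.8, 10.5 and 12.3 in the RiboTag IPs and 9.67, 8.11 and 10.4 in theirs. AngioTag IP 1 was highest, and the difference was 4.29 ± 0.453 (adjusted p 5.49e-05). BCL6B, a transcriptional repressor, stood at 158, 118 and 227 CPM in the AngioTag IPs and between 2.54 and 10.7 elsewhere, with a difference of 4.65 ± 0.433 (adjusted p 1.89e-05). hhex, a homeobox factor of blood and endothelial precursors, passed at 4.47 ± 0.776 (adjusted p 0.00257). etsrp, the ETS factor that starts the endothelial program in zebrafish, passed at 3.87 (adjusted p 0.000108), and the SoxF factors SOX7 and sox18 at 4.21 and 2.60. SOX17 showed the largest fitted difference of the list, 6.34 ± 1.01 (adjusted p 0.0015), but only 7 reads in the 3 RiboTag IPs and 30 in their inputs stand behind its RiboTag side. Members that did not pass included ETS1 at 0.94 (adjusted p 0.272), GATA2 at 0.38 (adjusted p 0.422), klf2b at 0.42 (adjusted p 0.727) and PROX1, a lymphatic regulator, at -0.39 (adjusted p 0.759). GATA2 was enriched in both pull-downs, by 1.21 in AngioTag and by 0.83 in RiboTag (adjusted p 0.000441 and 0.0192).

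Surface and junction proteins had 29 of 38 members with a positive difference, 0 with a negative one and a median of 3.92. clec14a, an endothelial surface lectin, stood at 1438, 932 and 1679.6 CPM in the AngioTag IPs, 23.5, 27.9 and 24 in their inputs, 27.6, 21.8 and 51.8 in the RiboTag IPs and 27.1, 19.4 and 32.4 in theirs. The AngioTag IPs did not overlap the other libraries, and the difference was 5.39 ± 0.473 (adjusted p 1.21e-05). CLDN5 (ENSDARG00000014059), a tight junction claudin, stood at 968, 617 and 1346 CPM in the AngioTag IPs and between 21.1 and 26.1 in the other 9 libraries and a difference of 5.26 ± 0.352 (adjusted p 3.4e-06). A second gene under the same symbol did not pass, at 0.72 (adjusted p 0.498). tek, the angiopoietin receptor, was enriched in both lines, by 4.74 in AngioTag and 1.14 in RiboTag (adjusted p 0.0135), so its difference of 3.604 (adjusted p 1.69e-05) was below its AngioTag enrichment. vwf, a clotting factor carrier made by endothelium, had a difference of 4.01 with an adjusted p of 0.0539, and it passed with DESeq2 (adjusted p 0.00316), with the block (adjusted p 0.0404) and without RiboTag IP 2 or 3 (adjusted p 0.0457 and 0.0421). robo4, a guidance receptor, had 0.16 (adjusted p 0.854).

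G protein-coupled receptors and their partners had 9 of 22 members with a positive difference, 1 with a negative one and a median of 1.34. GPR182 stood at 238, 148 and 306 CPM in the AngioTag IPs and between 8.36 and 15.8 in the other 9 libraries, a difference of 4.31 ± 0.353 (adjusted p 8.72e-06). The apelin receptors aplnrb and aplnra passed at 3.70 and 1.66, and the adhesion receptor ADGRL4 at 4.45. The member with a negative difference was ednrab, an endothelin receptor known from neural crest, at -2.43 ± 0.436 (adjusted p 0.00315). It stood at 9.46, 5.84 and 4.7 CPM in the AngioTag IPs, below all 9 other libraries, and at 47.2, 27.4 and 31 in the RiboTag IPs. The receptors that pair with ramp2, calcrla and CALCRL, had differences of 3.98 and 2.93 with adjusted p of 0.0545 and 0.129. Both passed with DESeq2 (adjusted p 0.00782 and 0.0418) and without RiboTag IP 3 (adjusted p 0.0431 and 0.0489), and calcrla also without RiboTag input 3 (adjusted p 0.045). S1PR1, a lipid receptor of vessels, had 0.63 (adjusted p 0.261, and 0.0395 without AngioTag IP 1).

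Lumen and small GTPase regulators passed in 5 of 18 members upward and 0 downward, with a median of 0.95. Without RiboTag IP 2 the count was 8. Passing members included fgd5a (3.47), rasip1 (3.39), arap3 (2.78) and arhgap29b (1.34), all regulators of small GTPases. The call of arhgap29b was lost under 10 alternatives, 9 of them with 1 library left out (adjusted p 0.0649 to 0.131). rasip1, a Ras-interacting protein needed for vessel lumens, stood at 249.8, 98.5 and 149 CPM in the AngioTag IPs, 10.3, 8.36 and 9.01 in their inputs, 16.4, 24 and 11.7 in the RiboTag IPs and 9.87, 11.7 and 8.87 in theirs, with a difference of 3.39 ± 0.45 (adjusted p 0.00032). The cerebral cavernous malformation genes KRIT1 and CCM2 had differences of -0.12 and 0.06 (adjusted p 0.859 and 0.963). Of all 49 endothelial members that did not pass in either direction, 21 were higher in sorted cells and 6 lower, beside 13.9% and 14.9% of all genes tested there. ETS1, robo4, S1PR1, klf2b and SH3BP5 were among the 21, with FACS fold changes of 3.46, 2.41, 2.18, 2.46 and 1.76 (log2, chosen as examples after their values were seen).

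Markers of vessel type followed. Of 28 arterial and Notch genes, 8 had a positive difference and 1 a negative one (median 0.67), and of 19 venous and lymphatic genes 10 and 0 (median 2.91). Summed CPM of the venous list was 2165, 2039 and 3252 in the AngioTag IPs and between 339.6 and 432 in the other libraries, while the arterial and Notch list had 1618 to 1738 against 992 to 1438. dll4, the Notch ligand of arteries and tip cells, stood at 44, 46.3 and 65 CPM in the AngioTag IPs, 6.88, 6.73 and 6.72 in their inputs, 3.06, 4.26 and 8.15 in the RiboTag IPs and 6.49, 6.23 and 7.78 in theirs. The AngioTag IPs stood apart, and the difference was 3.34 ± 0.424 (adjusted p 0.00022). The connexins gja4 and GJA5, gap junction proteins of arteries, had differences of 6.38 and 5.64 (adjusted p 0.000353 and 4e-05), and mfng, which modifies Notch receptors, 4.43 (adjusted p 3.13e-05). Only 9 reads of gja4 were counted in the 3 RiboTag IPs together. dlb, a Delta ligand of neural tissue, had -1.44 ± 0.338 (adjusted p 0.0174), a call lost without AngioTag IP 3, AngioTag input 3 or RiboTag input 1 (adjusted p 0.0546 to 0.063). On the venous side stab1 and stab2, scavenger receptors, had 4.32 ± 0.372 and 3.97 ± 0.406 (adjusted p 1.14e-05 and 4.06e-05), and MRC1, the mannose receptor, 4.33 ± 0.467 (adjusted p 5.93e-05). stab2 stood at 476, 475 and 840.2 CPM in the AngioTag IPs and between 21.2 and 46.9 in all others. Some list members mark other tissues as well, since Notch ligands are used throughout the embryo.

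Genes of blood lineages were among the positive differences. Of 8 blood progenitor genes, 7 had a positive difference and 0 a negative one (median 2.34); without AngioTag input 2 or 3 the count was 3 or 4. LMO2, a cofactor shared by blood and endothelial precursors, stood at 93.6, 54.6 and 92.9 CPM in the AngioTag IPs, 16.9, 11.8 and 12.6 in their inputs, 24.1, 10.4 and 12.7 in the RiboTag IPs and 20.7, 15.3 and 15.6 in theirs. Its difference was 2.67 ± 0.437 (adjusted p 0.00169). gfi1aa, a transcriptional repressor of early blood, had 20.6, 15 and 33.1 CPM in the AngioTag IPs against at most 1.24 elsewhere, and a difference of 6.24 ± 1.02 (adjusted p 0.00166). Only 0, 5 and 21 reads of gfi1aa were counted in the RiboTag IPs, which limits that size. Of 28 myeloid genes, 14 had a positive difference and 0 a negative one (median 2.14). Their summed CPM was 658, 752 and 1458 in the AngioTag IPs, 198 to 258 in their inputs, 149.8 to 173 in the RiboTag IPs and 203 to 217 in theirs. lyz, the lysozyme of neutrophils and macrophages, stood at 200.1, 239.9 and 598 CPM in the AngioTag IPs, 4.42, 14.1 and 13.6 in their inputs, 1.69, 0.965 and 2.73 in the RiboTag IPs and 3.04, 4.15 and 4.08 in theirs. The AngioTag inputs were also above the RiboTag libraries, and the difference was 6.10 ± 0.716 (adjusted p 0.000108). srgn, a granule proteoglycan, had 5.09 ± 0.687 (adjusted p 0.000363), NCF1, a subunit of the phagocyte oxidase, 4.76 ± 0.51 (adjusted p 5.93e-05), and SPI1 (PU.1), the regulator of myeloid fate, 3.89 ± 0.583 (adjusted p 0.000846). The myeloid list was also high in sorted cells, where 23 of 31 members were up and 0 down and the sum was 1346 to 2963 against 290.5 to 445. The part of blood cells in the differences was not tested.

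Erythroid and globin genes gave 4 of 27 positive and 0 negative (beside 4.44% and 3.53% of all genes), with a median of 1.03. The count was 2 without AngioTag IP 3, AngioTag input 2, AngioTag input 3 or RiboTag input 1, 8 without AngioTag IP 2 and 7 without RiboTag IP 3, and 13 with the replicate block. The zinc finger genes drll.2 and blf of early erythroid cells passed at 3.09 ± 0.513 and 2.11 ± 0.419 (adjusted p 0.00188 and 0.00625), both calls being lost with all 18 libraries in 1 fit (adjusted p 0.0625 and 0.185). The embryonic globin hbae1.1, alas2 of haem synthesis and gata1a, the erythroid regulator, had differences of 0.82, 0.73 and 0.37 with adjusted p of 0.536, 0.138 and 0.706, and alas2 passed with the block (adjusted p 0.0475). The summed CPM of the list ranged widely within groups, from 4623 to 12620 in the AngioTag IPs and from 1619 to 5143 in the RiboTag IPs. Globin copies are near-identical, and reads shared between copies make their separate values uncertain.

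The largest positive differences under the naming rule included F2RL2 (ENSDARG00000090524), a protease-activated receptor, and pdia2, a protein disulfide isomerase. F2RL2 stood at 16.2, 13.3 and 32.3 CPM in the AngioTag IPs and at most 0.54 CPM elsewhere, and pdia2 at 24, 13.2 and 24 against at most 0.90. Their fitted differences were 8.58 ± 1.03 and 7.65 ± 0.688 (adjusted p 0.000128 and 1.46e-05). These sizes rest on 6 and 7 reads in the 3 RiboTag IPs together, beside 62 and 82 in the RiboTag inputs, and depend on the prior count of the fit. The AngioTag enrichments of 5.84 and 4.78 rest on 2046 and 1869 reads in the IPs against 43 and 87 in the inputs. spi2, an ETS factor, stood at 48.7, 38.1 and 96.6 CPM in the AngioTag IPs and at most 1.14 elsewhere (difference 6.08 ± 0.989, adjusted p 0.00166), and hbl2, a lectin, at 16.1, 17.7 and 28.5 against at most 1.18 (difference 5.21 ± 0.453, adjusted p 1.14e-05). pecam1b, the second PECAM gene, passed at 6.17 ± 0.95 (adjusted p 0.00107). RiboTag IPs 1 to 3 held 0, 6 and 27 reads of pecam1b and 0, 9 and 30 of spi2, which limits these sizes too. actc1c, an actin gene, differed from these in the sorted cells. It stood at 69, 118 and 134 CPM in the AngioTag IPs, at most 1.24 in their inputs and at most 1.52 in the RiboTag libraries. In the 3 libraries of sorted cells it stood at 0, 0 and 0.302 CPM. It was as low in their whole-embryo reference, at 0.16, 0.0816 and 0.592 CPM, and could not be tested there. Its difference was 6.05 ± 0.696 (adjusted p 9.64e-05). Actin genes share near-identical sequence, and how reads were divided among them is not given in the sources used here.

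Under the same rule, which leaves out genes whose average log2 CPM is below 2, the largest negative difference was that of col8a1a, a collagen of the notochord sheath and vessel walls. It stood at 7.11, 3.52 and 3.32 CPM in the AngioTag IPs, 58.5, 23 and 44.6 in their inputs, 153, 252 and 56.8 in the RiboTag IPs and 109, 119.9 and 66.5 in theirs. The AngioTag IPs were below all other libraries, while RiboTag IPs and inputs overlapped. The AngioTag enrichment was -3.20, the RiboTag enrichment 0.64 and the difference -3.85 ± 0.683 (adjusted p 0.00292). col5a3b, a fibrillar collagen, moved in both lines in opposite directions, with 62.2, 50.5 and 36.3 CPM in the AngioTag IPs, 98.9, 94 and 127 in their inputs, 146, 276 and 253 in the RiboTag IPs and 43.8, 66.3 and 74.1 in theirs. IP and input did not overlap in either line. Its AngioTag enrichment was -1.10 (adjusted p 0.0138), its RiboTag enrichment 1.88 (adjusted p 0.00305) and the difference -2.98 ± 0.4 (adjusted p 0.000355). angptl2a, a secreted angiopoietin-like protein, was at 0.328, 0.424 and 0.319 CPM in the AngioTag IPs against 4.49 to 6.55 in their inputs (difference -3.07 ± 0.681, adjusted p 0.0127). NOTUM, an enzyme that inactivates Wnt proteins, had -2.96 (adjusted p 0.00688), CELSR2, a cadherin of planar polarity, -2.78 (adjusted p 0.00306), and lmod3, a muscle thin filament protein, -2.79 (adjusted p 0.00724). RASSF8 (ENSDARG00000045485), abi3b, FAM222A (ENSDARG00000090797), PFAS and TYR were also among the 12 largest, between -3.35 and -2.78. The call of lmod3 was lost with all 18 libraries in 1 fit (adjusted p 0.0963), and that of TYR there (adjusted p 0.114) and without AngioTag IP 3 (adjusted p 0.0527).

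Lists of tissues other than vessels and blood had mostly negative differences among the members that passed. Of 48 neural genes 17 passed downward and 0 upward (median -1.09), of 20 notochord and cartilage genes 11 and 1 (median -1.48), of 23 pigment and neural crest genes 9 and 0 (median -1.37), and of 40 skeletal muscle genes 10 and 0 (median -0.80). The neural count was 29 without AngioTag IP 2, 31 with the replicate block, and between 8 and 11 without AngioTag IP 3 or any of the 6 inputs. The upward notochord call was lost without AngioTag IP 3, AngioTag input 1 or 3, RiboTag IP 1, or RiboTag input 2 or 3. The downward notochord count was 6 without AngioTag IP 3 or RiboTag input 3 and 7 without AngioTag input 3 or RiboTag input 2. The pigment count was 15 with the block, and there were 2 upward muscle calls without RiboTag IP 3 and 1 upward pigment call without AngioTag IP 1. In each of the 4 lists the median AngioTag enrichment was negative (-0.76, -0.76, -0.95 and -0.88) and the median RiboTag enrichment positive (0.30, 0.62, 0.18 and 0.07).

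COL9A2, a cartilage and notochord collagen, stood at 125, 144 and 112 CPM in the AngioTag IPs, 253, 295 and 300.4 in their inputs, 553, 699 and 491 in the RiboTag IPs and 266, 274 and 305 in theirs. AngioTag IPs were below and RiboTag IPs above all 6 inputs, and the difference was -2.20 ± 0.282 (adjusted p 0.000236). Its partner col9a1b had -2.00 ± 0.299 (adjusted p 0.000846, and 0.0505 with all 18 libraries together). The notochord markers tbxta and the SHH copies did not pass, at -0.99, -1.13 and -0.98 (adjusted p 0.167, 0.0565 and 0.055). The neural factors SOX1 (ENSDARG00000008131) and otx2a had -1.67 ± 0.298 and -1.73 ± 0.359 (adjusted p 0.00294 and 0.00845). Of the neural markers, SOX2 passed at -0.99 (adjusted p 0.0271). ELAVL3, NEUROD1 and tubb5 had -0.83, -0.78 and -0.62 without passing (adjusted p 0.601, 0.384 and 0.277). SOX1 stood at 13.2, 14.8 and 11.6 CPM in the AngioTag IPs and 34.8, 34.4 and 44.9 in the RiboTag IPs, with 19.4 to 21.99 and 14.99 to 23.6 in their inputs. Among pigment genes, FOXD3, an early neural crest factor, stood at 4.7, 5.71 and 4.86 CPM in the AngioTag IPs against 14.5 to 46.4 in the other 9 libraries (difference -2.12 ± 0.384, adjusted p 0.00337), a call lost with all 18 libraries in 1 fit (adjusted p 0.205). The muscle regulators MYOD1 and MYOG had -1.55 and -1.72 (adjusted p 0.00347 and 0.0194), that of MYOG lost without AngioTag IP 3, AngioTag input 1, or RiboTag input 2 or 3 and with all 18 libraries together (adjusted p 0.057 to 0.138). actc1b, a muscle actin, stood at 4041, 2855 and 3252 CPM in the AngioTag IPs and between 5081 and 16042 elsewhere (difference -2.21 ± 0.418, adjusted p 0.00446). These tissues were still counted in the AngioTag IPs: summed CPM of the muscle list was 39140 to 39330 there and 33480 to 48140 in their inputs, and of the neural list 2785 to 3387 against 3974 to 4448.

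Smaller counts came from the remaining tissue lists. Epidermis gave 3 upward and 3 downward of 35, lens 1 downward of 18, hatching gland 1 downward of 7 and pronephros 0 of 19 in either direction. Over all genes tested 4.44% passed upward and 3.53% downward, so the lens count is near the background. In the pronephros list, for which edgeR called 0, the unadjusted p was below 0.05 for 0 genes upward and 4 downward, and DESeq2 called 0 and 2. With the block the downward counts were 9 for epidermis, 7 for lens, 4 for the hatching gland and 2 for the pronephros. The downward epidermis count was 5 without AngioTag IP 2, 1 without RiboTag IP 1, RiboTag IP 3 or RiboTag input 3, and 0 without AngioTag IP 3, any AngioTag input, or RiboTag input 1 or 2. The single hatching gland call was lost without AngioTag IP 2 or 3, AngioTag input 1 or 3, RiboTag IP 1, or RiboTag input 2 or 3, and without RiboTag IP 2 the lens and hatching gland lists had 3 calls each. The 3 upward epidermis genes were the keratins krt18a.1 (1.75, adjusted p 0.00447) and krt18b (1.68, adjusted p 0.0118), simple-epithelium keratins, and cldnf (1.36, adjusted p 0.031), whose call was lost under 8 alternatives, among them the omission of AngioTag IP 2, any AngioTag input, or RiboTag input 2 or 3 (adjusted p up to 0.0958). krt18a.1 stood at 2057, 1540.4 and 2672 CPM in the AngioTag IPs and between 504 and 719 in the other 9 libraries. The epidermal markers went the other way. krt5 passed downward at -1.22 (adjusted p 0.0346), while krt4, cldne and epcam had -0.82, -0.60 and -0.36 without passing (adjusted p 0.315, 0.282 and 0.668). Of 13 mural genes 3 passed upward and 0 downward, TAGLN (ENSDARG00000033466, transgelin) at 1.80 ± 0.408, foxf2a at 1.66 ± 0.391 and FOXC1 at 1.33 ± 0.268 (adjusted p 0.0147, 0.0175 and 0.00665). Only FOXC1 held with any 1 library left out, and without AngioTag IP 3 the list's count was 1. Of 16 cardiac genes GATA5 and GATA6 passed, at 1.59 and 1.31 (adjusted p 0.0278 and 0.0328), and the count was 0 without AngioTag IP 3, AngioTag input 1 or 2, or RiboTag input 1 or 2 and 1 without AngioTag input 3 or RiboTag input 3.

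Basement membrane and collagen genes split, 5 upward and 5 downward of 36, beside 4.44% and 3.53% of all genes. Upward were components of vessel basement membranes: col18a1b at 3.76 ± 0.603, LAMB1 (ENSDARG00000045524) at 3.28 ± 0.471, COL4A1 at 3.02 ± 0.526 and lama4 at 2.67 ± 0.433 (adjusted p 0.0015, 0.000616, 0.00258 and 0.00164). lama4 stood at 191, 212 and 343 CPM in the AngioTag IPs and between 22.4 and 53.9 in the other libraries. Downward were COL1A2, a fibrillar collagen, at -1.97 ± 0.295 and LAMB2, another laminin chain, at -1.81 ± 0.303 (adjusted p 0.00083 and 0.00198), both held with any library left out. The downward count of the list was 11 without AngioTag IP 1, 9 without RiboTag IP 3 and 3 without AngioTag IP 3, AngioTag input 2 or 3, or RiboTag input 1 or 2, and 14 with the block. Immediate early genes passed upward in 6 of 31 and downward in 1, with JUND at 2.09 ± 0.473 and sgk1 at 1.80 ± 0.337 (adjusted p 0.0144 and 0.00428). The downward member was MYC (ENSDARG00000045695) at -1.80 ± 0.295 (adjusted p 0.00172), with an AngioTag enrichment of -0.80 and a RiboTag enrichment of 1.00.

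**Figure D4:**
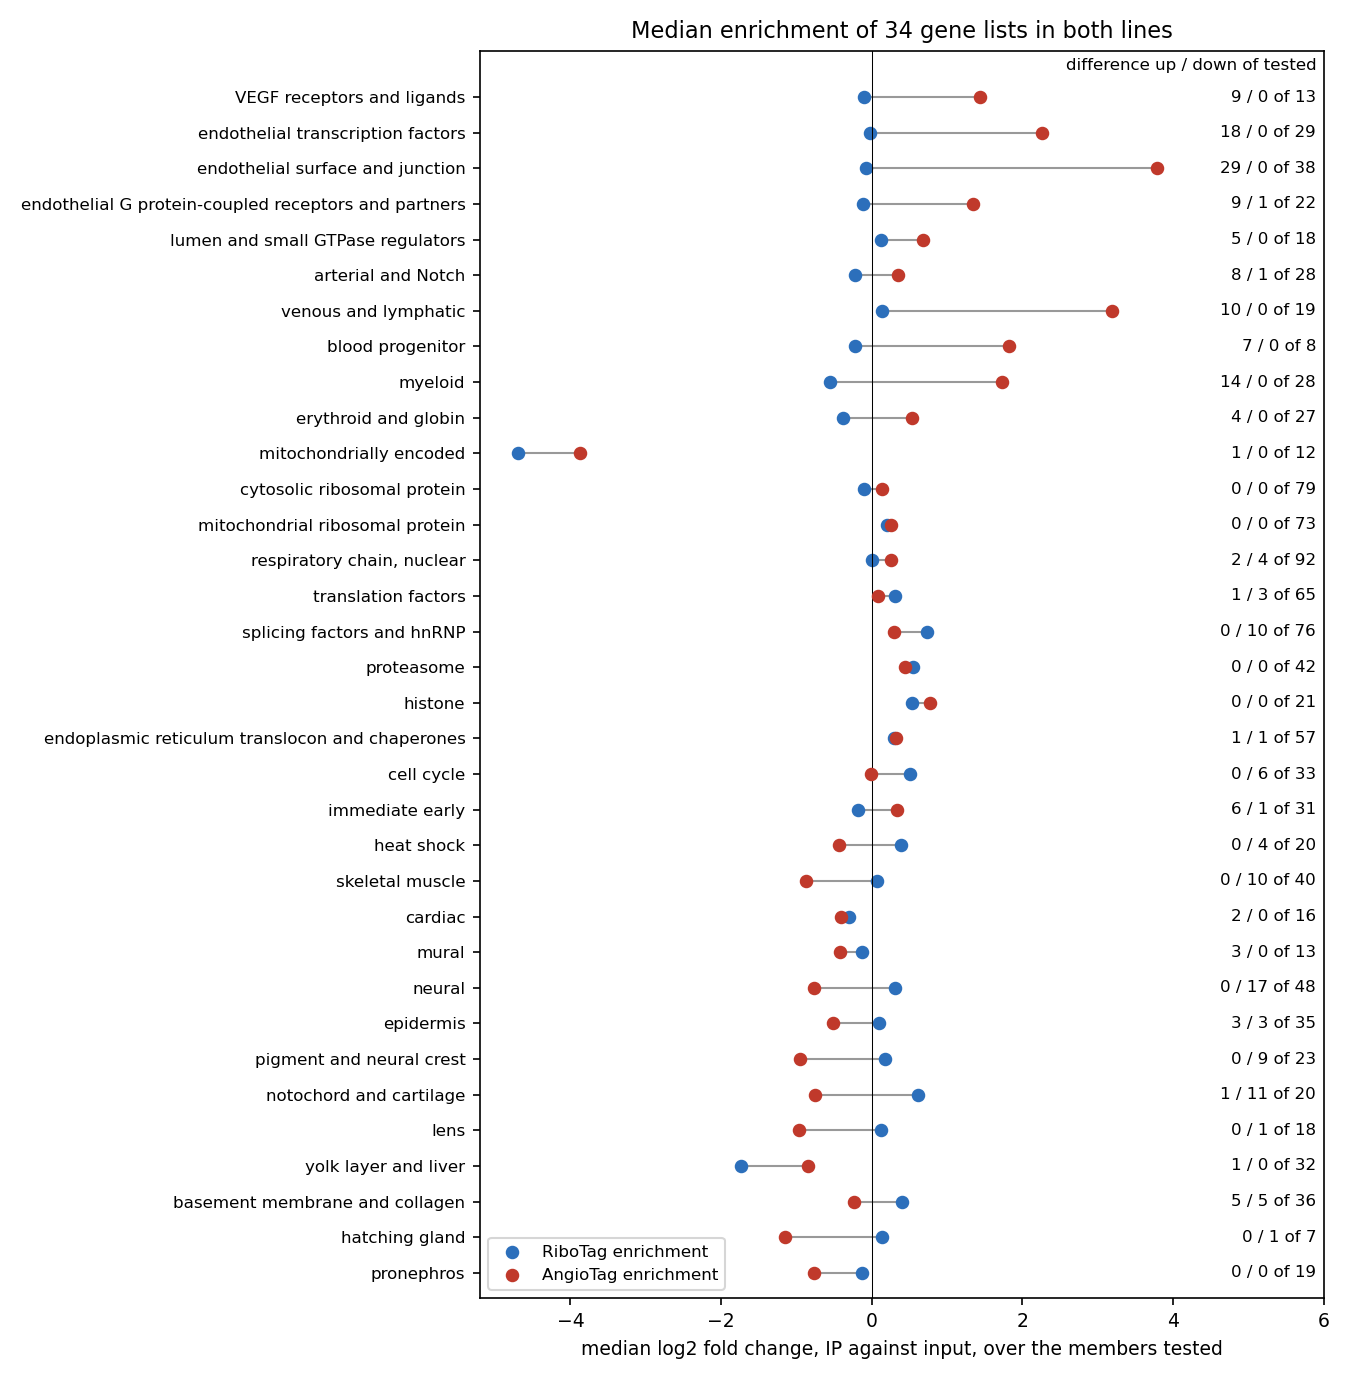
Median log2 fold change of IP over input for each of 34 gene lists in the AngioTag line (red) and the RiboTag line (blue), with the number of members passing upward and downward in the difference of enrichments and the number tested at the right. Red lies far to the right of blue for endothelial, venous and myeloid lists, and both lie far to the left for mitochondrially encoded genes.

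Of 76 splicing factor and hnRNP genes, 32 were enriched in the RiboTag IP and 1 in the AngioTag IP, beside 3.25% and 8.48% of all genes. The RiboTag count was 17 without RiboTag IP 1, 6, 7 and 12 without RiboTag inputs 1, 2 and 3, and 7 in the 6 RiboTag libraries alone. It was 51 with the block and 53 without both AngioTag IP 1 and RiboTag IP 2. The AngioTag count was 10 with DESeq2, 8 with the block, 6 without AngioTag IP 2 and 0 without AngioTag IP 1. The median enrichments were 0.73 in RiboTag and 0.29 in AngioTag. The difference passed downward in 10 and upward in 0, with a median of -0.53. That count ran from 2 to 21 with 1 library left out: 21 without AngioTag IP 1, 5 without AngioTag IP 2 or AngioTag input 3, 4 without AngioTag input 2 or RiboTag input 3, 3 without AngioTag IP 3, AngioTag input 1 or RiboTag input 2, and 2 without RiboTag input 1. It was 22 with the block and 30 without both AngioTag IP 1 and RiboTag IP 2. SF3B4, a subunit of the spliceosome, stood at 90.5, 61.2 and 69.8 CPM in the AngioTag IPs, 122, 84.5 and 85.4 in their inputs, 253, 223 and 336 in the RiboTag IPs and 113, 98.4 and 101 in theirs. Only the RiboTag IPs stood apart, and the difference was -1.78 ± 0.316 (adjusted p 0.00293). SRSF6 (ENSDARG00000013729), a splicing regulator, had -1.44 ± 0.261 (adjusted p 0.00329) from a RiboTag enrichment of 1.301 and an AngioTag value of -0.14. Of 33 cell cycle genes 6 passed downward, among them the replication helicase subunits MCM3 and MCM7 at -1.49 ± 0.279 and -1.47 ± 0.285 (adjusted p 0.00414 and 0.00534). The AngioTag and RiboTag enrichments were -0.71 and 0.78 for MCM3 and 0.19 and 1.67 for MCM7, and the list's count was 3 without AngioTag IP 3, AngioTag input 1, RiboTag input 1 or RiboTag input 3. MCM7 stood at 786, 764 and 941 CPM in the RiboTag IPs against 240.1 to 382 in the other 9 libraries. Of 20 heat shock genes 4 passed downward (9 with the block, and 2 without AngioTag input 3 or RiboTag input 3).

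Mitochondrially encoded messages, which are translated on mitochondrial ribosomes without the tagged protein, were depleted in both pull-downs. All 12 fell in each, with medians of -3.87 in AngioTag and -4.70 in RiboTag, and the difference passed in 1, MT-ND3 at 1.73 (adjusted p 0.0401), lost without AngioTag IP 2 or 3, any AngioTag input, or RiboTag input 1 or 3 (adjusted p 0.0701 to 0.109), while 2 members passed without RiboTag IP 2 and 3 without RiboTag IP 3. mt-nd4l stood at 1.31, 1.97 and 1.73 CPM in the AngioTag IPs and 2.45, 2.77 and 1.4 in the RiboTag IPs, against 97.2 to 227 in the inputs. Its enrichments of -6.15 and -6.23 left a difference of 0.09 ± 0.428. The 32 yolk layer and liver genes had median enrichments of -0.84 in AngioTag and -1.74 in RiboTag. In the RiboTag IP 22 of them were depleted and in the AngioTag IP 10, beside 2.07% and 10.3% of all genes. The RiboTag number was 10 without RiboTag input 1, 27 without RiboTag IP 3 and 7 in the 6 RiboTag libraries alone. The median difference was 1.03 with 1 member passing. The count was 15 without RiboTag IP 3, 3 without AngioTag IP 1 and 15 with the block, and 0 without AngioTag IP 2 or 3, any AngioTag input, RiboTag IP 1, or RiboTag input 1 or 3. That member, apoa4a, had a difference of 1.86 ± 0.534 (adjusted p 0.0465) with an AngioTag enrichment of -0.50 (adjusted p 0.379). Cytosolic ribosomal protein genes (79), mitochondrial ribosomal protein genes (73), proteasome genes (42) and histones (21) passed in 0 members under edgeR. At an unadjusted p below 0.05 these lists had 2, 1, 0 and 1 members up and 0, 0, 2 and 0 down. DESeq2 called 1, 0, 0 and 1 up and 0, 0, 0 and 0 down, and the block 11 cytosolic and 5 mitochondrial ribosomal protein genes up and 1 proteasome gene down. Of 92 nuclear respiratory chain genes 2 passed upward and 4 downward (13 and 5 with the block), and of 65 translation factors 1 and 3 (1 and 8 with the block). In the main fit neither list stood clear of the shares over all genes, 4.44% upward and 3.53% downward. The downward respiratory chain count was 2 without AngioTag IP 2, 1 without AngioTag IP 3 and 0 without any of the 6 inputs, and the upward one was 1 without AngioTag IP 3, AngioTag input 1 or 3, or RiboTag input 1. The upward translation factor count was 0 without any 1 library other than AngioTag IP 1 or RiboTag IP 3, and the downward one was 0 or 1 without AngioTag IP 3 or any input. The tissue-restricted cytochrome oxidase subunit COX4I2 stood at 48, 48.9 and 115 CPM in the AngioTag IPs and at most 4.63 elsewhere, with a difference of 3.99 ± 0.557 (adjusted p 0.000475). Endoplasmic reticulum translocon and chaperone genes passed in 1 upward (pdia2) and 1 downward (SRP72, -1.12) of 57, below the shares over all genes. The call of SRP72 was lost without AngioTag IP 3, AngioTag input 1 or any RiboTag input. The downward count was 3 without AngioTag IP 1 and 2 without RiboTag IP 2 or 3, and the upward one was 2 without RiboTag IP 2.

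The enrichments of the lines share no library, but both came from the joint fit. Scaling and the spread estimated for each gene were shared, so the calls in the lines are not independent. Of the 1615 genes enriched in the AngioTag IP, 104 (6.44%) were enriched in the RiboTag IP too, beside 3.25% of all genes. The 104 are 16.8% of the 619 enriched in RiboTag, beside 8.48% of all genes enriched in AngioTag. Of the 1968 depleted in the AngioTag IP, 117 (5.95%) were depleted in the RiboTag IP, beside 2.07% of all genes. The 117 are 29.7% of the 394 depleted in RiboTag, beside 10.3% of all genes depleted in AngioTag. Genes enriched in both under the naming rule included acin1a and knop1, nuclear proteins, with AngioTag and RiboTag enrichments of 1.86 and 1.80 and of 1.73 and 1.502, and differences of 0.06 and 0.23 (adjusted p 0.955 and 0.768), which ran from -0.27 to 0.30 and from -0.05 to 0.43 over the alternatives. dennd2db was enriched in both, by 4.34 and 1.86, and still had a difference of 2.48 ± 0.433 (adjusted p 0.00262). In opposite directions, 19 genes were enriched in AngioTag and depleted in RiboTag and 35 the reverse. The 19 are 1.18% of the genes enriched in AngioTag, beside 2.07% of all genes depleted in RiboTag. They are 4.82% of those depleted in RiboTag, beside 8.48% of all genes enriched in AngioTag. The 35 are 1.78% of those depleted in AngioTag, beside 3.25% of all genes enriched in RiboTag. They are 5.65% of those enriched in RiboTag, beside 10.3% of all genes depleted in AngioTag. Opposite calls were thus rarer than the shares over all genes. Among the first were NRROS, a protein of myeloid cells that holds latent TGF-beta, CSGALNACT1, an enzyme of chondroitin sulfate synthesis, and TPD52L1. NRROS stood at 10.01, 13.3 and 21.8 CPM in the AngioTag IPs, 2.14, 2.6 and 2.96 in their inputs, 0.756, 0.457 and 0.683 in the RiboTag IPs and 2.61, 2.01 and 2.42 in theirs, so IP and input lay apart in each line, on opposite sides. Its difference was 4.45 ± 0.478 (adjusted p 5.93e-05).

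In the 6 libraries of sorted cells and their reference, which the difference of enrichments does not use, 2683 of 19326 genes tested (13.9%) were higher in sorted cells and 2872 (14.9%) lower. Of the 846 genes with a positive difference, 831 were tested there, and 687 (82.7%) were higher and 8 (0.963%) lower in sorted cells. Those 687 are 25.6% of all genes higher in sorted cells. Of the 673 with a negative difference, 671 were tested, and 304 (45.3%) were lower and 9 (1.34%) higher. Among genes with neither call, 10.6% were higher and 15% lower. The median sorted-cell fold change was 2.56 (log2) for positive and -1.02 for negative differences and -0.14 for the rest. With upper-quartile scaling, which moved the median of all genes by -0.21, 2200 genes were higher and 3674 lower in sorted cells. Sorted library 3 differed from sorted libraries 1 and 2. Its summed CPM was 52970 for erythroid and globin genes against 11110 and 10060, and 1569 for pigment and neural crest genes against 190.2 and 160.3. For the endothelial lists together it was 24610 against 31900 and 32200. Without sorted library 3, 3088 genes were higher and 2189 lower in sorted cells. Examples of negative differences without a call in sorted cells are SF3B4 (FACS -0.43, adjusted p 0.196), MCM7 (-0.60, adjusted p 0.158) and PFAS, a purine synthesis enzyme (0.26, adjusted p 0.774). PFAS varied among the sorted libraries, at 23.1, 15.1 and 85.6 CPM against 38.2, 39 and 26.6 in their reference.

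**Figure D5:**
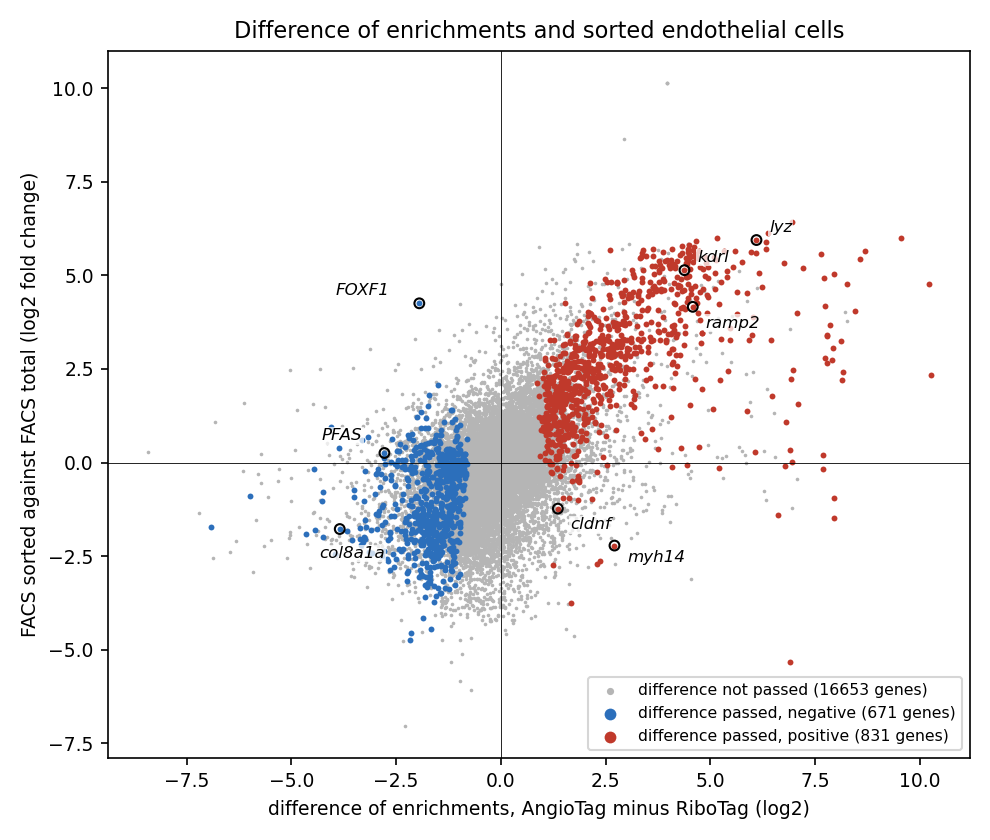
Log2 fold change of sorted cells over their whole-embryo reference (vertical) against the difference of enrichments (horizontal) for genes tested in both, with positive (red, 831 genes) and negative (blue, 671 genes) differences coloured. Red points lie mostly above 0 on the vertical axis, with a median of 2.56, and blue points spread on both sides of 0 with a median of -1.02.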

How the data were processed

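The deposited values are whole-number counts per gene, made by the authors, for 25193 genes in 18 libraries, 3 in each of 6 groups, of which 22548 carried a symbol in the name table used. STAR 2.4.2a, RSEM 1.2.22, DESeq2 and the build GRCz10 are named in the submitters' processing notes, and which step each served, the annotation, the strand setting and whether the counts are rounded RSEM estimates are not given in the sources used here. Libraries were polyA selected or rRNA depleted per the labels' protocols, which do not say which. Totals ran from 18337269 to 49541930 counts.

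The 12 AngioTag and RiboTag libraries were fitted together with edgeR 4.0.16 (R 4.3.3) after filtering (filterByExpr, minimum count 10, minimum total 15) and TMM scaling. The quasi-likelihood F test gave p-values, adjusted by the Benjamini-Hochberg method over all genes tested, with a threshold of 0.05, and each SE was taken from the estimate and its F value (the size of the log2 value over the root of F). The 6 FACS libraries were fitted separately. The fit of the difference was also run on simulated counts with the same dispersion for every gene and no pairing of libraries. That setting is simpler than the data, so the run cannot show how reliable the calls given here are. Replicates differed beyond sampling noise, with a chi-square per degree of freedom of 17.4 or more. Same-numbered IP and input libraries had correlations of 0.24 to 0.53 in AngioTag and 0.42 to 0.83 in RiboTag. Sorted libraries and their reference had 0.44, -0.01 and 0.18. AngioTag number 2 and sorted number 2 correlated better with another number (0.28 and 0.09), and the rest correlated best with their own. Alternatives were 2 other scalings, DESeq2 1.42.0, 2 other filters, other library sets, the replicate block and each library left out.

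Genes and the 34 lists were chosen with earlier results of these data known, and 628 of the 701 singly named list entries matched. Named are kdrl, ramp2, rpl10a, the 12 largest rises and 12 largest falls with average log2 CPM of at least 2 and no overlap of the 9 IP-input pairs of each line, up to 4 members per list in its main direction and 2 in the other, and up to 6 genes shared or opposite between lines. Other genes were added after their values were seen, and a few genes under the rule are not reported here.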

Additional observations from a re-analysis of the deposited data

Results flagged for a closer look

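For 19 of the genes named, the pull-down moved the message significantly in opposite directions in the AngioTag and RiboTag lines. The interaction between line and pull-down, which is the difference of enrichments, passed in edgeR for each. It subtracts the RiboTag enrichment from the AngioTag one, so opposite calls nearly fix that outcome and it is no separate support. Some of these genes were named because their calls were opposite. Such calls were rarer than the shares over all genes, as given in the results.

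Higher in the AngioTag IP and lower in the RiboTag IP were pdia2, a protein disulfide isomerase, with a difference of 7.65, ramp2 with 4.58, NRROS with 4.45, TPD52L1 with 4.40, CSGALNACT1 with 3.86 and pierce1 with 3.22. In sorted cells all of these genes were also higher, with log2 fold changes of 5.56, 4.16, 4.41, 4.104, 3.90 and 3.91 (adjusted p up to 0.000656).

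Lower in the AngioTag IP and higher in the RiboTag IP were col5a3b with a difference of -2.98, abi3b with -2.91, the lens crystallin CRYBB1 with -2.54, COL9A2 with -2.20, TFAP2E, a transcription factor of neural crest and pigment cells, with -2.05, col9a1b with -2.00, the muscle actin ACTC1 (ENSDARG00000057911) with -1.94, MYC (ENSDARG00000045695) with -1.80, SOX1 (ENSDARG00000008131) with -1.67, the purine synthesis enzymes GART with -2.06 and ATIC with -1.24, MCM3 with -1.49 and HSPD1, a mitochondrial chaperone, with -1.31. Fitting all 18 libraries together lost TFAP2E (adjusted p 0.0921), HSPD1 (adjusted p 0.149) and col9a1b (adjusted p 0.0505). In sorted cells CRYBB1, ACTC1, SOX1 and MCM3 were lower (-1.44, -2.10, -2.06 and -0.82, adjusted p 0.00387, 0.00463, 0.00721 and 0.0344). The others of this direction were not called there, with adjusted p from 0.0679 (COL9A2) to 0.919 (TFAP2E). HSPD1 and TFAP2E had -0.36 and -0.11 (adjusted p 0.622 and 0.919).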

How the results depend on the processing

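Positive and negative differences numbered 1372 and 1152 with DESeq2, 1526 and 1515 with the replicate block, 1748 and 1365 without both AngioTag IP 1, the shallowest of the 12, and RiboTag IP 2, the lowest in ribosomal protein messages, and 308 negative ones with all 18 libraries in 1 fit. The AngioTag IP depleted 3031 genes with the block. The RiboTag IP enriched 407 genes with upper-quartile scaling and 376 with all 18 libraries in 1 fit, and it enriched and depleted 1141 and 1133 with DESeq2, 1479 and 1400 with the block, 121 and 87 in its own 6 libraries alone, and 1871 and 2329 without AngioTag IP 1 and RiboTag IP 2. The remaining alternatives stayed within 1.5 times of each count. With 1 library left out, positive differences ran from 546 to 1177 and negative ones from 265 to 943, AngioTag enriched genes from 974 (without AngioTag input 3) to 2101 (without RiboTag IP 2) and depleted ones from 816 (without AngioTag IP 3) to 2494 (without RiboTag IP 2). RiboTag enriched genes then ran from 82 to 1170 and depleted ones from 101 to 1236, the low ends without RiboTag input 1 and the high ends without RiboTag IP 2. Genes higher in sorted cells ran from 1724 (without FACS total 1) to 3088 (without sorted library 3) and lower ones from 1543 (without sorted library 1) to 2754 (without FACS total 3). The cause of these movements was not tested. For the 151 genes named by the rule and 48 added, 0 of 4171 alternative values reversed, 357 lost the call and 29 gained it. Values of genes not called that changed sign by more than 1 SE were 0.47 for SLC20A1 and -0.21 for hbae1.1 without AngioTag IP 1 and RiboTag IP 2, and for PROX1 0.44 there and 0.26 without RiboTag IP 2. Of 1470 list counts, 239 moved by more than 1.5 times. The replicate block was used because same-numbered IP and input correlated positively in both lines, though AngioTag number 2 correlated better with another number. It also gave 2 mitochondrially encoded genes upward, 3 endoplasmic reticulum genes upward and 6 downward, 2 immediate early genes and 1 proteasome gene downward. MT-CO3 passed upward with it (adjusted p 0.00335), and 1 gene passed against the main direction in the erythroid, splicing, muscle, pigment and yolk lists. Beside these and the counts in the results, list counts moved by less than 1.5 times with the block (70 to 76 for the endothelial lists together), and beside those in the results it changed no other call of a gene named. Among the genes named by the rule, few RiboTag IP reads limit the sizes of the largest positive differences, such as 6 for F2RL2 and 9 for gja4. The same holds for gfi1aa, pecam1b and spi2, with 26, 33 and 39 reads and 0 of them in RiboTag IP 1. Genes outside the rule had larger fitted values, such as lpxn at 10.2 with 0 CPM in every RiboTag IP.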

Other observations

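The genes in these paragraphs were chosen after their values were seen. Enzymes of purine synthesis stood among the negative differences. GART, an enzyme of several steps of the pathway, stood at 9.63, 12.1 and 8.64 CPM in the AngioTag IPs, 23.4, 22 and 26.5 in their inputs, 42.7, 65.2 and 57.6 in the RiboTag IPs and 32.2, 33.6 and 28.1 in theirs. The AngioTag IPs lay below and the RiboTag IPs above all inputs, and the difference was -2.06 (adjusted p 0.000553). PFAS had -2.78 (adjusted p 0.0124), PAICS -1.27 (adjusted p 0.0282), ATIC -1.24 (adjusted p 0.00599) and IMPDH2, the first enzyme of guanine nucleotide synthesis, -1.05 (adjusted p 0.0414). The calls of PAICS and IMPDH2 were lost under 8 and 13 alternatives (adjusted p up to 0.173 and 0.499), most of them with 1 library left out, and that of ATIC with all 18 libraries together (adjusted p 0.174). PPAT, ADSL and GMPS did not pass, at -0.51, -0.52 and -0.21. In sorted cells GART, PFAS, PAICS, ATIC and IMPDH2 had log2 fold changes of 0.20, 0.26, -0.26, -0.44 and 0.95, with adjusted p from 0.362 to 0.774. Each of them was highest in sorted library 3. GART stood at 21.7, 20.7 and 61.1 CPM in sorted libraries 1 to 3 and at 33.4, 27.8 and 29 in their reference. In sorted libraries 1 and 2 GART, PFAS, PAICS and ATIC were below all reference libraries, and IMPDH2 was not. A fit without sorted library 3 was run, but its fold changes for these genes are not reported here.

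Among the 17 genes called in opposite directions by the difference of enrichments and by cell sorting were myh14, a non-muscle myosin, FOXF1, a mesodermal transcription factor, and actr3, a subunit of the Arp2/3 complex. myh14 had a difference of 2.71 (adjusted p 0.0229) and a sorted-cell fold change of -2.22 (adjusted p 0.00527). FOXF1 had -1.95 (adjusted p 0.0392) against 4.25 (adjusted p 0.00611), and actr3 -1.18 (adjusted p 0.0194) against 1.08 (adjusted p 0.0152). FOXF1 was low, at 0.383, 0.798 and 0.691 CPM in the AngioTag IPs and 1.59, 2.19 and 2.77 in their inputs. In sorted libraries 1 to 3 it stood at 14, 9.62 and 92.4 CPM, against 1.56, 2 and 2.53 in their reference, so the last library raised the size. The calls of FOXF1 and actr3 were lost under 11 and 6 alternatives (adjusted p up to 0.228 and 0.0815), and that of myh14 without AngioTag input 1 or 3 (adjusted p up to 0.0656). cfhl1 had a positive difference of 3.45 (adjusted p 0.038) from a RiboTag enrichment of -3.70, with an AngioTag enrichment of -0.25, and its call was lost under 10 alternatives (adjusted p up to 0.102).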
